A study of Mus musculus with 15 samples.

Results

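The genes described here are 10 feedback targets, inhibitors and receptors of the Wnt pathway: APCDD1, AXIN2, LGR5, NKD1, LEF1, TCF7, RNF43, ZNRF3, NOTUM and SP5. All 10 were found by symbol among the 24891 genes of the expression table. The group was put together because APCDD1 was lower with both shRNAs against B7-H3 in sorted tumor cells, so the members were chosen by measured values, the sorted-cell APCDD1 levels, and the sorted comparisons against control are given as a description, without a test. RNA was sequenced from Tsc2-deficient 105K cells, a mouse renal tumor line without the tumor suppressor Tsc2, grown under the skin of wild-type C57BL/6J mice. Male mice received the cells at 6 weeks of age. The 15 libraries fall into 5 groups of 3. Bulk tumors carried either the control shRNA, sh-NC, or the first shRNA against B7-H3, sh-B7-H3 (1). Sorted cells carried sh-NC, the first shRNA, or the second one, sh-B7-H3 (2). All groups carry the Tsc2 loss and a stable shRNA, the transduced cells are pools and not clones, the host keeps its own immune system, and "sorted" means that non-tumor cells were removed with magnetic beads.

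In canonical Wnt signaling, a secreted Wnt ligand binds a Frizzled receptor and an LRP co-receptor, the complex that destroys β-catenin is switched off, and β-catenin enters the nucleus and works with TCF and LEF factors at their target genes. Several of those targets act back on the pathway. AXIN2 rebuilds the destruction complex, NKD1 acts on Dishevelled, RNF43 and ZNRF3 are ubiquitin ligases that take Frizzled off the cell surface, NOTUM is a secreted enzyme that strips the lipid from Wnt ligands, and APCDD1 is a membrane protein that inhibits Wnt at the cell surface. LGR5 is a receptor for R-spondins, which keep RNF43 and ZNRF3 in check, while TCF7, LEF1 and SP5 are nuclear factors.

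Levels are given as scaled FPKM: reads per gene adjusted for transcript length and library total, then divided by 1 factor per library, so that they can be set side by side between genes. Replicate libraries correlated at Pearson's r of 0.906 to 0.986 over 12194 genes. The labels do not say that the libraries of a group came from separate tumors, so p-values measure the spread between these libraries. CD276, which encodes B7-H3, checks the labels: in sorted cells it was 17.3 to 34.0 scaled FPKM with sh-NC, 7.29 to 14.0 in the libraries labelled sh-B7-H3 (1), and 23.3 to 25.7 in the libraries labelled sh-B7-H3 (2). In bulk tumors it was 20.8 to 23.5 with sh-NC and 17.8 to 24.4 in the libraries labelled sh-B7-H3 (1). Lower CD276 mRNA was therefore seen in the sorted libraries labelled sh-B7-H3 (1), and not in the other knockdown libraries, which are named below by their labels. Markers of epithelial cells summed to 723 to 1854 scaled FPKM and those of renal epithelium to 543 to 813 over all libraries. Sorted sh-B7-H3 (2) replicate 1 stood apart, with a sum over 10 leukocyte markers of 223 scaled FPKM where the remaining sorted libraries had 12 to 17.

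In the GRCm38 annotation (GENCODE M21) 9 members, all protein-coding genes, lie at the following places: AXIN2 at chr11:108920349-108950783, LGR5 at chr10:115450311-115587780, NKD1 at chr8:88521354-88594884, LEF1 at chr3:131110471-131224356, TCF7 at chr11:52252371-52283014, RNF43 at chr11:87662722-87735539, ZNRF3 at chr11:5276324-5444847, NOTUM at chr11:120653788-120661175 and SP5 at chr2:70474923-70477729. RefSeq windows of 250 bases before and 50 bases after a transcript start (GRCm38.p6) were at hand for AXIN2, NKD1, LEF1, TCF7, RNF43 and SP5. The core letters that TCF and LEF factors are known to bind, CTTTGA or TCAAAG on the other strand, were searched in them because these members are named as targets of those factors. The letters occur in 16.0% of all 32851 windows. Matches stood in the window of SP5, beginning 204 and 104 bases before its start, and in 1 of the 4 windows of LEF1, that of a start inside the gene, beginning 180 and 120 bases before it. The windows of AXIN2, NKD1, TCF7 and RNF43 do not hold these letters. The 2 stretches below run between the matches on the plus strand (SP5 at chr2:70474707-70474836, LEF1 at chr3:131156102-131156191), with the matched letters in capitals.
SP5: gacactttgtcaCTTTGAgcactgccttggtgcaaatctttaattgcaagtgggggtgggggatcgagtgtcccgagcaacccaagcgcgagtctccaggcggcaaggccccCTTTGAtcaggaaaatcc
LEF1: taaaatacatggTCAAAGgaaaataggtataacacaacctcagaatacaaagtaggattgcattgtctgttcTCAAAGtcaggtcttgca

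Of the 10 members, APCDD1, TCF7, RNF43 and ZNRF3 reached 1 scaled FPKM in at least 3 libraries of each comparison and entered the fit, limma on log2(scaled FPKM + 1) with Benjamini-Hochberg adjustment over all genes tested. AXIN2, LGR5, NKD1, LEF1, NOTUM and SP5 did not reach that level. Where the reads behind such a member could be worked out, they came to at most 50 in a library, and none could be for AXIN2. APCDD1 was the most abundant member in the 6 sh-NC libraries and TCF7 in the 9 knockdown libraries. SP5 was listed at 0 in 14 of 15 libraries and at 0.0130 scaled FPKM in sorted sh-B7-H3 (1) replicate 3.

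APCDD1, the membrane inhibitor, was measured at 28.9, 21.3 and 22.5 scaled FPKM in the sorted sh-NC libraries. It was 3.23, 5.76 and 5.88 in the sorted sh-B7-H3 (1) libraries and 3.72, 3.86 and 4.01 in the sorted sh-B7-H3 (2) libraries. All 6 knockdown libraries lay below all 3 controls. The log2 change was -2.10 with sh-B7-H3 (1), 4.30-fold on the scale of scaled FPKM + 1, and -2.36 with the second shRNA, 5.15-fold, and both use the same sh-NC libraries. These values chose the group and carry no test. Cell type markers moved in the same comparison: 8 epithelial markers summed to 801 to 969.5 scaled FPKM in sorted sh-NC cells and 1426 to 1854 in the sorted knockdown libraries, 8 renal epithelial markers to 543 to 591 and 729 to 813, and 8 macrophage markers to 30.7 to 44.1 and 61.5 to 391. Their part in the sorted values was not tested. Between the 2 shRNAs, APCDD1 differed by 0.26 log2, and their libraries overlapped. This difference is also given without a test, because it is made of values that chose the group.

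The stated reason for the choice did not use the bulk tumors, although the members were chosen with earlier results of these data known. APCDD1 was 36.0, 24.3 and 32.1 scaled FPKM in bulk sh-NC tumors and 10.8, 12.3 and 11.5 in bulk sh-B7-H3 (1) tumors. The groups did not overlap, and APCDD1 was 2.51-fold lower (log2 change -1.33, SE 0.149, limma adjusted p = 0.00345). The call held in all 13 alternative settings, with log2 changes from -1.48 to -1.21. In bulk tissue, fewer cells of a type and less RNA per cell cannot be told apart, and markers of non-tumor cells moved in the same comparison: 8 fibroblast markers summed to 130.2 to 242 scaled FPKM in bulk sh-NC tumors and 406 to 824 in bulk sh-B7-H3 (1) tumors, and 8 skeletal muscle markers to 4.42 to 24.4 and 41.0 to 779. Their part in the bulk values was not tested. Summed epithelial markers were 723 to 816 in bulk sh-NC and 989 to 1305 in bulk sh-B7-H3 (1) tumors.

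**Figure D1:**
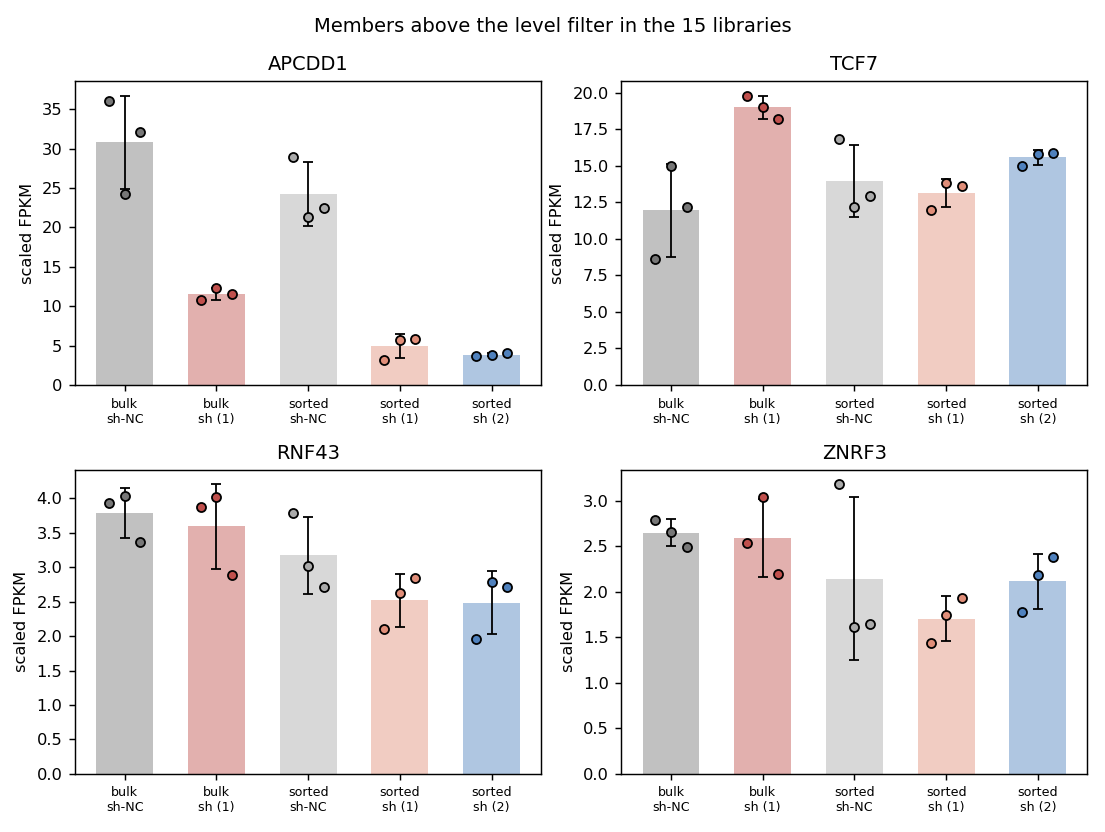
Scaled FPKM (linear axis) of APCDD1, TCF7, RNF43 and ZNRF3 in the 15 libraries by group, where sh (1) and sh (2) stand for the 2 shRNAs against B7-H3. Points are libraries, bars are group means and error bars are SD (n = 3). APCDD1 lies at 21.3 or more in every sh-NC library and at 12.3 or less in every knockdown library. For RNF43 and ZNRF3, knockdown and sh-NC libraries overlap within each material.

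Between bulk tumors and sorted cells, APCDD1 differed by 0.33 log2 with sh-NC and by 1.11 log2 with sh-B7-H3 (1), higher in bulk both times, and the log2 fall was 0.78 smaller in bulk tumors. These 3 values are given without a test, because they contain the sorted APCDD1 levels that chose the group.

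RNF43 and ZNRF3, the ligases that remove Frizzled, were at 1.44 to 4.04 scaled FPKM in all libraries. RNF43 was 3.79, 3.02 and 2.71 scaled FPKM in sorted sh-NC cells, 2.10, 2.62 and 2.85 with sh-B7-H3 (1), and 1.96, 2.78 and 2.72 with sh-B7-H3 (2). The libraries overlapped, and the log2 differences from sh-NC were -0.24 and -0.26. ZNRF3 was 3.18, 1.61 and 1.64 in sorted sh-NC cells, 1.44, 1.74 and 1.93 with sh-B7-H3 (1), and 1.78, 2.18 and 2.38 with sh-B7-H3 (2). Replicate 1 of sorted sh-NC held the highest ZNRF3 value of all 15 libraries, so the mean of that group leans on it. In bulk tumors, RNF43 was 3.37 to 4.04 with sh-NC and 2.89 to 4.02 with sh-B7-H3 (1), and the log2 difference was -0.06 (95% interval -0.38 to 0.25, limma adjusted p = 0.747). ZNRF3 was 2.49 to 2.79 and 2.19 to 3.04 in the same groups, with a difference of -0.03 (95% interval -0.31 to 0.25, limma adjusted p = 0.870). Across the 15 libraries the 2 ligases varied together (Pearson's r = 0.83, Spearman's rho = 0.80, n = 15), as a description over libraries that share groups and scaling.

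AXIN2, the scaffold of the destruction complex that is widely used as a readout of Wnt activity, stayed below 1 scaled FPKM in 14 of 15 libraries. It was 0.721, 0.340 and 0.399 in sorted sh-NC cells, 0.241, 0.223 and 0.230 with sh-B7-H3 (1), and 0.329, 0.596 and 0.591 with sh-B7-H3 (2). With sh-B7-H3 (1) it lay below every sh-NC library, and with sh-B7-H3 (2) it overlapped them. The share of all genes without overlap between sorted sh-B7-H3 (1) and sh-NC was not counted, and nothing is read from this. In bulk tumors it was 0.646, 0.850 and 0.933 with sh-NC and 0.741, 1.23 and 0.536 with sh-B7-H3 (1), which overlapped (exact two-sided permutation p = 1.00). AXIN2 varied most like ZNRF3 among the members (r = 0.86, rho = 0.82, n = 15).

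NKD1, the Dishevelled antagonist, was higher in every bulk library than in every sorted one. In sorted cells it was 0.0129, 0.0321 and 0.00702 scaled FPKM with sh-NC, 0.0185, 0.0362 and 0.00629 with sh-B7-H3 (1), and 0.0517, 0.0392 and 0.0337 with sh-B7-H3 (2). Taking the step between its values as 1 read, no sorted library held more than about 5 reads. In bulk tumors NKD1 was 0.146, 0.138 and 0.125 with sh-NC and 0.502, 0.324 and 0.386 with sh-B7-H3 (1), or about 10 to 16 and 27 to 45 reads. All 3 bulk knockdown libraries lay above all 3 bulk controls.

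LGR5, the R-spondin receptor, was high in 2 of the 5 groups. In bulk tumors it was 0.0393, 0.0630 and 0.0621 scaled FPKM with sh-NC and 0.329, 0.347 and 0.235 with sh-B7-H3 (1). In sorted cells it was 0.129, 0.0648 and 0.0608 with sh-NC, 0.0562, 0.169 and 0.0109 with sh-B7-H3 (1), and 0.385, 0.447 and 0.277 with sh-B7-H3 (2). The values of LGR5 step in whole multiples in all 15 libraries, and read that way they rest on 5 to 7 reads in bulk sh-NC, 19 to 40 in bulk sh-B7-H3 (1), 7 to 23 in sorted sh-NC, 2 to 27 in sorted sh-B7-H3 (1) and 38 to 50 in sorted sh-B7-H3 (2). LGR5 was thus high with sh-B7-H3 (1) in bulk tumors and with sh-B7-H3 (2) in sorted cells, and low with sh-B7-H3 (1) in sorted cells.

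NOTUM, the enzyme that inactivates Wnt ligands, split the 2 shRNAs. In sorted cells it was 0.167, 0.138 and 0.347 scaled FPKM with sh-NC, 0.0598, 0.109 and 0.0947 with sh-B7-H3 (1), and 0.312, 0.555 and 0.471 with sh-B7-H3 (2). All sh-B7-H3 (1) libraries lay below all sh-NC libraries, and the sh-B7-H3 (2) libraries overlapped the controls. As for AXIN2, the share of all genes without overlap in the first of these comparisons was not counted, and nothing is read from it. Its values also step in whole multiples, and read that way the sorted sh-B7-H3 (1) libraries held 3, 7 and 7 reads and the sorted sh-B7-H3 (2) libraries 14, 25 and 26. In bulk tumors NOTUM was 0.156, 0.291 and 0.541 with sh-NC and 0.240, 0.259 and 0.369 with sh-B7-H3 (1), which overlapped (exact two-sided permutation p = 0.800).

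TCF7 and LEF1 are both partners of β-catenin at DNA and both are also known from T cells. TCF7 was well above the level filter in every library. It was 16.8, 12.2 and 12.9 scaled FPKM in sorted sh-NC cells, 12, 13.8 and 13.6 with sh-B7-H3 (1), and 15, 15.8 and 15.9 with sh-B7-H3 (2), so both knockdown groups overlapped the control. In bulk tumors it was 8.63, 15 and 12.2 with sh-NC and 19.8, 19.0 and 18.2 with sh-B7-H3 (1), without overlap. This was a 1.58-fold rise (log2 0.66, SE 0.180, limma adjusted p = 0.0428), and the call held in 5 of 13 alternative settings, with adjusted p from 0.0109 to 0.228. It was lost without bulk sh-NC replicate 1 (log2 0.46, adjusted p = 0.0633) or replicate 3 (adjusted p = 0.115), and without bulk sh-B7-H3 (1) replicate 1 (adjusted p = 0.148) or replicate 3 (adjusted p = 0.0722), all by limma. The test of the difference between the bulk and sorted effects of sh-B7-H3 (1) on TCF7 gave 0.73 log2 with a limma adjusted p of 0.249.

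LEF1 was far lower than TCF7, at 0.0391 to 0.0479 scaled FPKM in sorted sh-NC cells. It was 0, 0.0938 and 0.0700 with sh-B7-H3 (1) and 0.593, 0.153 and 0.0592 with sh-B7-H3 (2). The value of 0.593, about 31 reads, came from the library that stood apart in leukocyte markers. In bulk tumors LEF1 was 0.0970, 0.135 and 0.178 with sh-NC and 0.730, 0.205 and 0.239 with sh-B7-H3 (1). The summed level of 12 T cell markers was 24.6, 24.6 and 8.19 scaled FPKM in these 3 knockdown libraries. It was 32.4 in sorted sh-B7-H3 (2) replicate 1 and 1.45 to 2.19 in the other 5 sorted knockdown libraries. With sh-NC it was 4.50 to 4.78 in bulk tumors and 0.551 to 0.988 in sorted cells. CD3E, CD4 and CD5 were listed at 0 in all 3 sorted sh-NC libraries. The 2 highest LEF1 values thus came from libraries among the 3 with the most T cell marker signal, and the part of T cells in them was not tested.

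**Figure D2:**
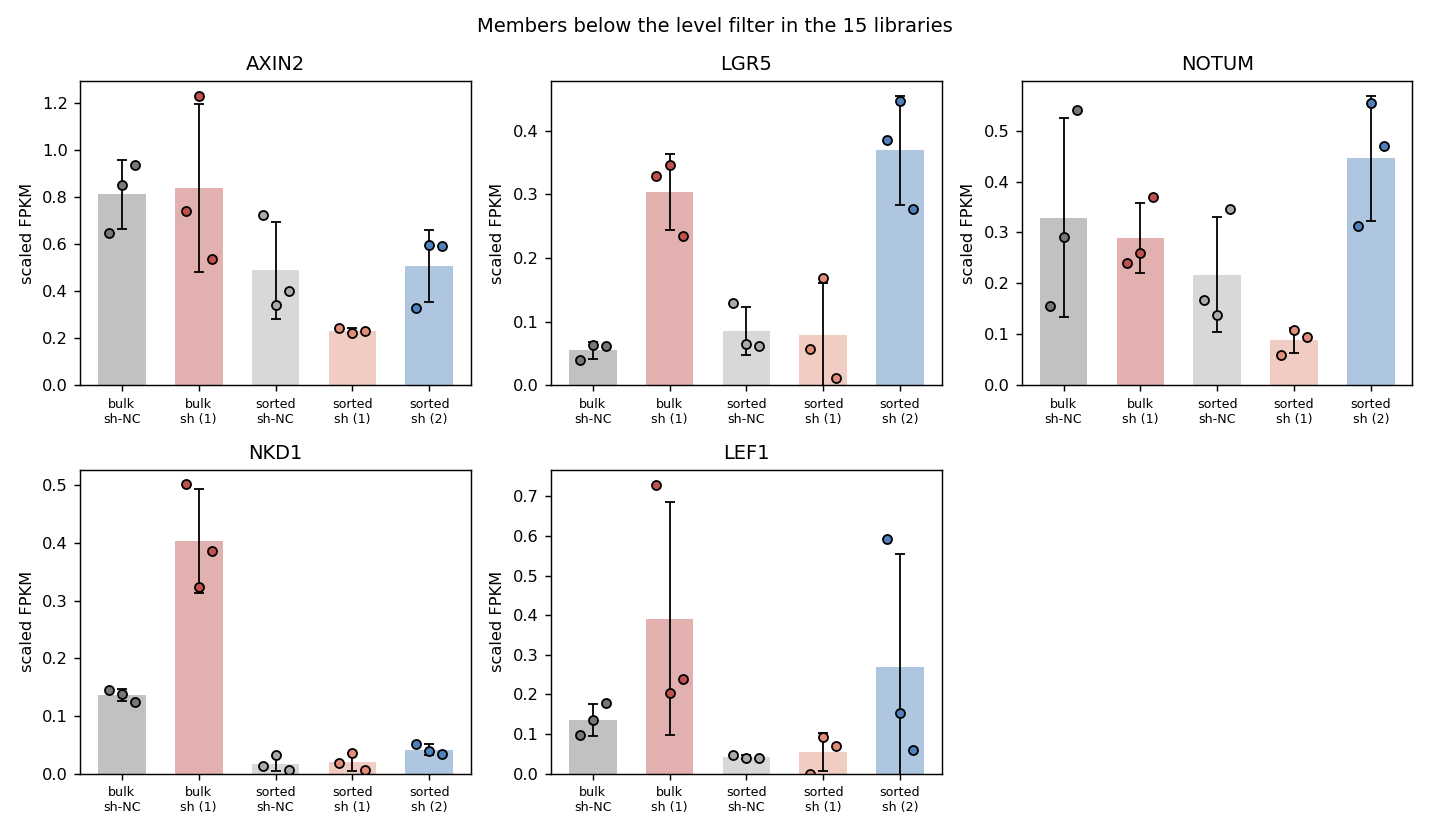
Scaled FPKM (linear axis) of AXIN2, LGR5, NOTUM, NKD1 and LEF1 in the 15 libraries by group, drawn as points with the mean as a bar and the SD as an error bar (n = 3). LGR5 is above 0.2 in bulk sh-B7-H3 (1) and sorted sh-B7-H3 (2) and below it elsewhere, NOTUM is lowest in sorted sh-B7-H3 (1), and LEF1 has 1 high library in bulk sh-B7-H3 (1) and 1 in sorted sh-B7-H3 (2).

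The members were then counted by comparison. In the sorted comparisons with sh-NC, the genes called over the whole table came to 13.4% with sh-B7-H3 (1), 19.1% with sh-B7-H3 (2) and 20.5% with both shRNAs as a group of 6. APCDD1 was among them through the choice of the group, as it was among the 19.6% of genes, out of those above 0 in 3 or more libraries, without overlap between all 6 knockdown libraries and the controls, and nothing is read from either. In bulk tumors, 2 of 4 tested members passed, APCDD1 lower and TCF7 higher, beside 21.4% of all genes. Of all 10 members, APCDD1 was lower and LGR5, NKD1, LEF1 and TCF7 were higher without overlap in bulk sh-B7-H3 (1) tumors, beside 40.2% of genes, each with an exact two-sided permutation p of 0.10, the smallest that 3 libraries against 3 can give. None of TCF7, RNF43 and ZNRF3 passed the limma test for a difference between the bulk and sorted effects of sh-B7-H3 (1), beside 0.464% of all genes. At an unadjusted p below 0.05, 1 of these 3 passed, TCF7, as did 14.6% of all genes.

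For the low members, limma was also run without the filter and with a pseudocount of 0.1, a setting chosen after the values were seen. In bulk tumors LGR5 rose by 1.37 log2 with sh-B7-H3 (1) (SE 0.180, adjusted p = 0.0145) and NKD1 by 1.08 (SE 0.196, adjusted p = 0.0261), where 11.4% of all genes passed. LEF1 was 0.91 higher (adjusted p = 0.191), and AXIN2 and NOTUM differed by -0.02 and -0.05. NKD1 in bulk tumors lay beside fibroblast markers that were also highest in the bulk knockdown group (406 to 824 scaled FPKM, and at most 242 in any other library), and their part in the NKD1 values was not tested. LGR5 was high in bulk sh-B7-H3 (1) and sorted sh-B7-H3 (2), and in both materials these groups also had the higher fibroblast marker sums, in sorted cells 127 to 179 against 53.1 to 96.5 with sh-NC or sh-B7-H3 (1). The part of fibroblasts in the LGR5 values was not tested.

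**Figure D3:**
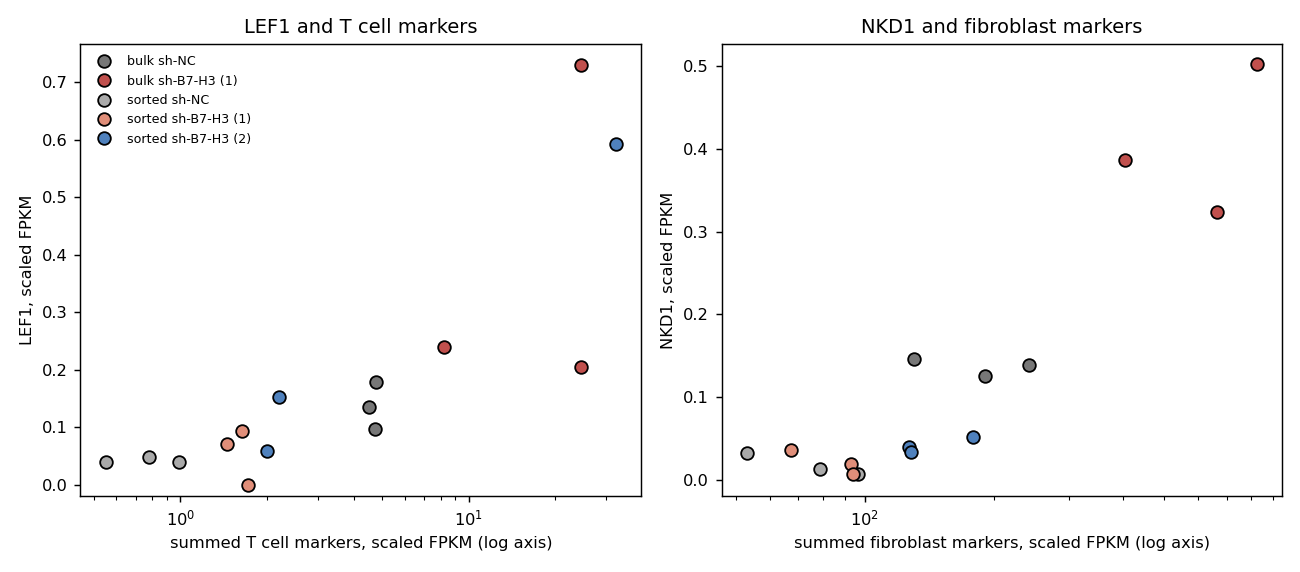
LEF1 against summed T cell markers, and NKD1 against summed fibroblast markers, in scaled FPKM, with a linear vertical and a log horizontal axis; each point is 1 of the 15 libraries, colored by group. The 2 LEF1 values above 0.5 lie at marker sums of 24.6 and 32.4, while another library at 24.6 has LEF1 at 0.205. The NKD1 values above 0.3 are the 3 bulk sh-B7-H3 (1) libraries.

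The 2 shRNAs were compared directly in sorted cells, where replicate numbers went with shared deviations. None of TCF7, RNF43 and ZNRF3 passed (limma, beside 3.40% of all genes), nor with the replicate number as a block (beside 16.6%). At an unadjusted p below 0.05, only TCF7 of these passed without the block, as did 22.0% of all genes. For the first against the second shRNA, the log2 difference was -0.23 for TCF7 (95% interval -0.44 to -0.02, limma adjusted p = 0.199, and 0.0581 with the block), 0.02 for RNF43 (95% interval -0.31 to 0.34) and -0.20 for ZNRF3 (95% interval -0.49 to 0.08). AXIN2, LGR5, NOTUM and TCF7 were lower with sh-B7-H3 (1) without overlap, 4 of 10 members, beside 25.9% of genes, each with an exact two-sided permutation p of 0.10. Without the filter and with a pseudocount of 0.1, the log2 difference was -1.52 for NOTUM (limma adjusted p = 0.0575, beside 0.939% of genes, and 0.0540 with the block, beside 0.617%), -1.47 for LGR5 (adjusted p = 0.119) and -0.84 for AXIN2 (adjusted p = 0.170). Without the leukocyte-rich sorted sh-B7-H3 (2) replicate 1, the log2 differences were -1.71 for NOTUM (limma adjusted p = 0.0152) and -1.07 for AXIN2 (limma adjusted p = 0.0313), and both passed, beside 4.67% of genes. The calls for NOTUM and AXIN2 therefore rest on leaving that library out.

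**Figure D4:**
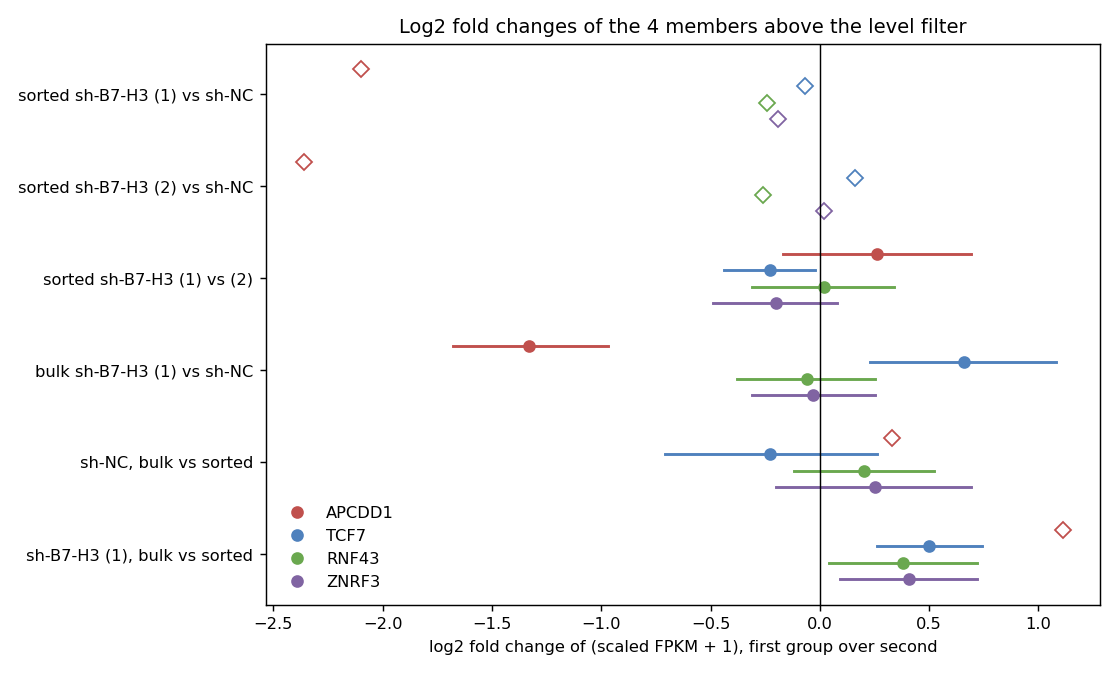
Log2 fold changes of scaled FPKM + 1 for APCDD1, TCF7, RNF43 and ZNRF3 in 6 comparisons, the first group over the second. Filled circles carry 95% intervals from limma; open diamonds are the sorted comparisons with sh-NC, and APCDD1 between bulk and sorted libraries, shown without intervals because they contain the values that chose the group. The bulk APCDD1 interval runs from -1.68 to -0.97, and the bulk intervals of RNF43 and ZNRF3 include 0. The APCDD1 interval between the shRNAs also holds values that chose the group, and nothing is read from it.

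Bulk tumors and sorted cells were compared within each shRNA. With sh-NC, none of TCF7, RNF43 and ZNRF3 passed limma's test, beside 16.9% of all genes, and none had an unadjusted p below 0.05, beside 33.5%. NKD1 and LEF1 were higher in bulk without overlap, 2 of 10 members beside 37.1% of genes, and without the filter and with a pseudocount of 0.1 they were 1.02 and 0.72 log2 higher (limma adjusted p = 0.00370 and 0.0304, beside 14.3% of genes). With sh-B7-H3 (1), 2 of these 3 were higher in bulk tumors, beside 38.2% of genes: TCF7 by 0.50 log2 (SE 0.103, limma adjusted p = 0.00975) and ZNRF3 by 0.41 (SE 0.135, limma adjusted p = 0.0473). ZNRF3 passed in 2 of 13 alternative settings, and with 1 library left out only without bulk sh-B7-H3 (1) replicate 3. TCF7 passed in 11, TCF7 being lost without bulk sh-B7-H3 (1) replicate 1 (limma adjusted p = 0.0562), and RNF43 differed by 0.38 (limma adjusted p = 0.0720). Of the 9 members other than APCDD1, all but SP5 were higher in bulk sh-B7-H3 (1) tumors than in sorted sh-B7-H3 (1) cells without overlap, beside 50.1% of genes. Without the filter and with a pseudocount of 0.1, NKD1 was 2.06 log2 higher, LEF1 1.57, AXIN2 1.43, LGR5 1.26 and NOTUM 1.05 (limma adjusted p = 0.00137, 0.0487, 0.0199, 0.0404 and 0.0152), where 26.8% of genes passed. Leukocyte markers summed to 186 to 385 scaled FPKM in bulk and 13.5 to 17 in sorted sh-B7-H3 (1) libraries, and their part was not tested.

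The other genes of the pathway were taken from 7 lists by role, 148 genes of which 142 are in the table. The lists were drawn up with earlier results of these data known, so the counts in sorted cells and bulk tumors are a description. These counts include genes with sh-NC means below the level filter, which entered the fit through knockdown libraries. Genes named from the lists were picked by their changes in these data, so their p-values are a description too. With both shRNAs in sorted cells, 83 could be tested, and 15 were higher and 8 lower than in sh-NC (limma, beside 20.5% of all genes called in either direction, median log2 change 0.11 against 0.01 over all genes tested). Among 6 ligands and ligand-processing genes, 4 rose and none fell. WNT7A, a ligand, rose from 2.98 ± 0.761 scaled FPKM in sorted sh-NC cells to 13.7 ± 2.31 with sh-B7-H3 (1) and 18.1 ± 0.886 with sh-B7-H3 (2) (SD, n = 3 each; log2 2.08, limma adjusted p = 1.06e-05). Of 13 receptors, 2 rose and 2 fell, led by PTK7, a Wnt co-receptor (log2 0.92, limma adjusted p = 9.31e-04). Neither of 2 R-spondin or LGR genes passed, and of 8 genes on the list of secreted and surface inhibitors 2 rose, led by DKKL1. DKKL1 was 0.297 ± 0.0728 with sh-NC, and 0.968 ± 0.467 and 1.26 ± 0.346 with the shRNAs (log2 0.69). Its sh-NC mean lay below the level filter, so it entered the fit through knockdown libraries, and no p-value is given for it. Between the shRNAs, 2 of 8 inhibitors were higher and 1 lower with sh-B7-H3 (1), beside 3.40% of all genes called. Against sh-NC, 0 of 6 inhibitors passed with sh-B7-H3 (1) alone, beside 13.4% of all genes. With sh-B7-H3 (2) alone, 3 rose and 2 fell, beside 19.1%. Those that fell, named after their values were seen, were DKK3, of the Dickkopf family (log2 -1.97, limma adjusted p = 1.46e-04), and SFRP2, a secreted Frizzled-related protein (-1.24, 0.0177), and both were also called between the shRNAs (limma adjusted p = 0.00400 and 0.0183).

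Among 18 genes of the destruction complex and cytoplasm, 1 rose and 1 fell. The gene that fell was CTNNB1, which encodes β-catenin itself, at 456 ± 40.6 scaled FPKM in sorted sh-NC cells, 276 ± 8.51 with sh-B7-H3 (1) and 222 ± 4.17 with sh-B7-H3 (2) (SD, n = 3 each; log2 -0.87, limma adjusted p = 8.55e-04). Of 18 nuclear factors, 2 rose and 2 fell, led by TCF7L1, a repressor of the TCF family (log2 0.88, limma adjusted p = 0.00752). Of 18 other reported targets, 4 rose and 3 fell, and the largest change among those called was in EPHB3, an ephrin receptor. EPHB3 was 0.466 ± 0.0965 with sh-NC, and 2.83 ± 0.263 and 3.64 ± 0.378 with the shRNAs (log2 1.52). It too had an sh-NC mean below the level filter and entered the fit through knockdown libraries, so its p-value is left out. With sh-B7-H3 (1) alone, 3 of these targets rose and 1 fell, beside 13.4% of all genes called. With sh-B7-H3 (2) alone, 6 rose and 3 fell, beside 19.1%. With the second shRNA alone, the calls included MMP7, a matrix protease (log2 3.98), and CAPN6 (log2 -2.11, limma adjusted p = 1.36e-04), named after their values were seen. Both were also called between the shRNAs (limma adjusted p = 0.00717 for CAPN6). Group levels of MMP7 are not given here, so it may have entered the fit through knockdown libraries only, and its p-values are left out.

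In bulk tumors with sh-B7-H3 (1), 85 of these genes were tested, and 30 were higher and 7 lower (limma, beside 21.4% of all genes called in either direction, median log2 change 0.27 against 0.02 over all genes tested). By role, 4 of 7 ligand genes, 6 of 13 receptors, 2 of 6 inhibitors, 2 of 19 destruction complex and cytoplasmic genes, 8 of 18 nuclear factors and 8 of 20 other targets rose, and 0, 1, 0, 2, 1 and 3 fell; neither of 2 R-spondin or LGR genes passed. WNT7A (log2 1.51, limma adjusted p = 0.00801), PTK7 (1.18, 0.00402) and TCF7L1 (1.53, 0.00426) rose and CTNNB1 fell (-0.55, 0.00992), as in sorted cells. SERPINF1, a secreted inhibitor, rose in bulk (log2 1.44, limma adjusted p = 0.00440) and was 0.53 log2 higher in sorted cells, which did not pass (adjusted p = 0.205). NKD2, the relative of NKD1, was 0.644 ± 0.252 scaled FPKM in bulk sh-NC and 2.05 ± 0.158 in bulk sh-B7-H3 (1) (log2 0.90). It was at most 0.128 on average in sorted groups. EPHB2, a further ephrin receptor, was 0.331 ± 0.110 and 2.64 ± 0.735 in the same bulk groups (log2 1.43). Both had bulk sh-NC means below the level filter and entered the fit through knockdown libraries, so no p-value is given for them. Of the 37 genes called in bulk, 9 were still called without bulk sh-B7-H3 (1) replicate 1, 23 without bulk sh-NC replicate 1, 20 without replicate 2 and 17 without replicate 3, and of the 23 called in sorted cells 14 were without sorted sh-NC replicate 2. The marker sums given above for each material moved in these comparisons too, and their part in the Wnt gene counts was not tested.

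**Figure D5:**
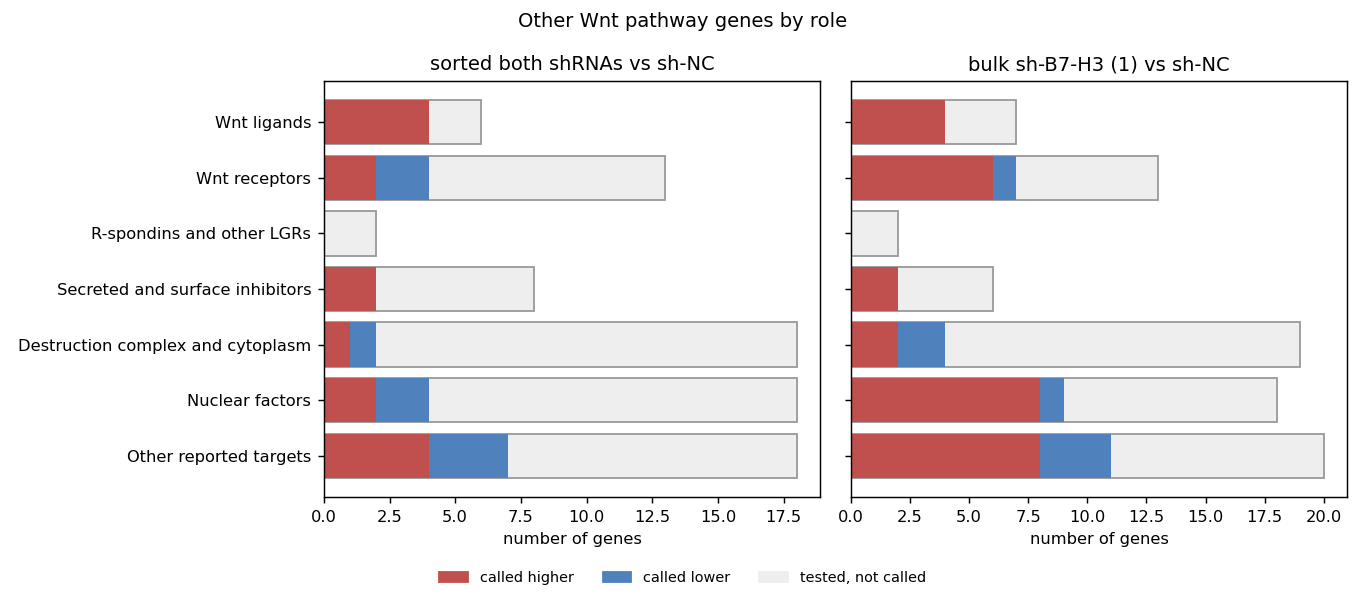
Numbers of other Wnt pathway genes by role list called higher (red), called lower (blue) or tested and not called (light gray) by limma. The left panel sets the 6 sorted knockdown libraries against sorted sh-NC, and the right panel the 3 bulk knockdown libraries against bulk sh-NC. The ligand list holds 4 called higher and none lower in both panels.

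Across all 15 libraries, the genes whose log2 values ran most like APCDD1, among 12194 genes with the same minimum level, were PLEKHO2 (Pearson's r = 0.966), NCAM1 (0.965), TRIM3 (0.965), SEC14L1 (0.964) and STAC2 (0.963). NCAM1, a cell adhesion molecule, averaged 19.4 scaled FPKM in sorted sh-NC cells, 6.47 with sh-B7-H3 (1) and 7.20 with sh-B7-H3 (2). For TCF7 the nearest genes were FNDC1, BMP1 and ZFP398 (r = 0.844, 0.832 and 0.824), for RNF43 PLEKHM2, CUL9 and MPDZ (0.951, 0.947 and 0.947), and for ZNRF3 MED16, ATG2A and DAB2IP (0.961, 0.952 and 0.952). Among pairs of members, AXIN2 and RNF43 (r = 0.78), APCDD1 and RNF43 (0.73) and LGR5 and TCF7 (0.69) followed the pairs already given. These are descriptions over 15 libraries that share groups and scaling.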

How the data were processed

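RNA of 15 libraries was analyzed from the table of FPKM values that the authors deposited, each library being a column. Although its name speaks of counts, its values have decimals, and tests on log values were used as planned. The labels name genome build mm10. The aligner and the annotation are not given in the sources used here. A further deposited table of log2(FPKM + 1) for 1000 genes served as a check (999 matched, largest difference 8.91e-08). The paper names the KAPA mRNA HyperPrep Kit and the labels a stranded Illumina kit, and read totals are not in the tables.

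Of 24917 entries, 26 with symbols turned into dates were left out. FPKM was divided by median-ratio factors (0.650 to 1.18, over 9872 genes), because MIR6236 held 6.01% to 79.7% of summed FPKM. Relative depth, from the steps of low values, ran from 0.468 to 1.00. Reads of members below 1 FPKM throughout were counted as multiples of a step, the lowest value divided by 1 to 4, whichever made more values whole within 0.05. This held for 10 of 15 NKD1 values, 10 of 14 LEF1 values and all 15 LGR5 and NOTUM values; for AXIN2 no step made enough values whole, and its reads are not given. That a step is 1 read was assumed.

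limma 3.58.1 (R 4.3.3, mean-variance trend) was run on log2(scaled FPKM + 1) for genes with 1 scaled FPKM in at least 3 libraries of a comparison, with only the groups compared, and calls were made at an adjusted p below 0.05. The step was tested on simulated data. Single values were compared by exact two-sided permutation tests. Python 3.11.15 with numpy 2.4.6, pandas 2.3.3, scipy 1.17.1 and matplotlib 3.10.9 was used. Alternatives left FPKM as deposited, quantile-normalized, used a pseudocount of 0.1, left out the filter, added the replicate number as a block, fitted all 5 groups, or left out each library in turn or the leukocyte-rich one. The members and lists were chosen with earlier results of these data known. Named genes are all members, the gene of each role list with the largest log2 change among those called in sorted cells with both shRNAs and in bulk tumors, the genes with the highest r (5 for APCDD1, 3 for the others), and CD276. AXIN2 missed the level for that ranking.

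Replicate numbers counted as pairing between sorted sh-B7-H3 (1) and (2), where deviations of same-numbered libraries correlated at 0.21, 0.23 and 0.21 over genes, a link seen in the data and not stated by the labels.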

Additional observations from a re-analysis of the deposited data

Results flagged for a closer look

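LEF1 in sorted sh-B7-H3 (2) replicate 1 was 0.593 scaled FPKM, far above the other 5 sorted knockdown libraries (0 to 0.153) by Dixon's criterion. The same library held 223 scaled FPKM of leukocyte markers and 32.4 of T cell markers, and their part was not tested. SP5 in sorted sh-B7-H3 (1) replicate 3, at 0.0130 scaled FPKM against 0 in the other 5, also met the criterion; it is the only value above 0 for that gene, and with 5 values at 0 any single value above 0 meets the criterion. For values that are not mostly 0, chance alone passes about 1 in 20 such groups.

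NOTUM lay on opposite sides of the sorted sh-NC mean of 0.217 scaled FPKM with the 2 shRNAs: all sh-B7-H3 (1) libraries were below it (mean 0.0878) and all sh-B7-H3 (2) libraries above it (mean 0.446), a difference of 0.358. This difference was not tested under the level filter, which NOTUM does not pass, and both shRNAs are set against the same 3 controls. Without the filter and with a pseudocount of 0.1, limma gave an adjusted p of 0.0575 for sh-B7-H3 (1) against (2).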

How the results depend on the processing

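Outside the sorted comparisons with sh-NC, members called were counted without APCDD1 wherever sorted values entered. The numbers were 0 between the shRNAs, 2 in bulk tumors and 0 for bulk against sorted effects. Between materials they were 0 for sh-NC and 2 for sh-B7-H3 (1) (TCF7 and ZNRF3). Without the filter they were 3 in bulk tumors (APCDD1, LGR5 and NKD1, with TCF7 lost), 2 for sh-NC between materials (NKD1 and LEF1) and 5 for sh-B7-H3 (1) between materials, or 6 with a pseudocount of 0.1 as well, a setting chosen after seeing the data. With FPKM as deposited they were 1 in bulk tumors, TCF7 being lost, and 0 for sh-B7-H3 (1) between materials, TCF7 and ZNRF3 being lost (limma adjusted p = 0.448 and 0.404). Quantile normalization, the replicate block and a fit of all groups each gave 1 for sh-B7-H3 (1) between materials, ZNRF3 being lost. Leaving out 1 library at a time gave 1 to 2 in bulk tumors, 0 to 1 for sh-NC between materials (ZNRF3 without sorted sh-NC replicate 1, limma adjusted p = 0.0152), and 0 to 3 for sh-B7-H3 (1) between materials. In the sorted comparisons with sh-NC, where APCDD1 is past the threshold through the choice of the group and counts are no test, the count of 1 became 2 without the filter for sh-B7-H3 (2) (LGR5) and 2 with quantile normalization for both shRNAs (RNF43).

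With the replicate number as a block, the count in bulk tumors was 1, since TCF7 reached a limma adjusted p of 0.0707, and the number of other Wnt genes called there was 24 in place of 37. Numbers did not pair those groups (same-numbered correlations of 0.38, 0.01 and -0.41), and over all genes the block took bulk calls from 2520 to 1413 and calls between the shRNAs from 382 to 1864. FPKM as deposited left 17 other Wnt genes in bulk tumors.

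Of 251 tested member fold changes recomputed, 219 kept side and direction, 21 lost and 2 gained a call, and 9 changed sign, none of them called. The 251 include APCDD1 between the shRNAs, which holds values that chose the group and counts as no test. Of 229 described without a test, 12 changed sign, all of TCF7 or ZNRF3 in sorted cells against sh-NC and 0 of APCDD1; they include TCF7 with sh-B7-H3 (1), -0.07 in the report's setting and 0.11 with FPKM as deposited, and ZNRF3 with sh-B7-H3 (2), 0.02 and down to -0.19. RNF43 between the shRNAs was -0.01 with FPKM as deposited, -0.10 to 0.11 with 1 library left out, -0.0032 and -0.05 without sorted sh-B7-H3 (1) replicates 2 and 3, -0.10 without the leukocyte-rich library, and -0.13 with the filter also removed and a pseudocount of 0.1. RNF43 and ZNRF3 in bulk were each 0.05 without bulk sh-B7-H3 (1) replicate 3 (ZNRF3 -0.12 to 0.05 over all libraries left out), and the bulk minus sorted ZNRF3 effect was -0.07 without sorted sh-NC replicate 1 (-0.07 to 0.27 over all). The causes were not tested. LGR5, NKD1, LEF1, NOTUM and SP5 rest on at most 50 reads in a library, and the reads behind AXIN2 are unknown.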
